A study of Mus musculus with 1152 samples.

Results

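Disease-associated microglia of 5xFAD mice that carried reads of the chemokine Ccl4 were set against disease-associated microglia of the same mice with no Ccl4 read. Microglia are the resident macrophages of the brain. A cell was taken as disease-associated when it had reads in at least 3 of the 8 genes Cst7, Clec7a, Itgax, Spp1, Lpl, Axl, Igf1 and Gpnmb. It counted as Ccl4-positive at a Ccl4 level of 50 CPM or more (reads scaled to a common total of reads in genes), and as Ccl4-negative with 0 reads of it. Of 939 cells kept in the whole series, 137 were disease-associated cells of 5xFAD hippocampus or cortex. They fell into 50 Ccl4-positive cells, 67 Ccl4-negative cells and 20 cells in between, which entered neither class. Both classes thus hold 117 cells. The cells were chosen by their own reads of the panel genes and of Ccl4, so the levels of these 9 genes are given as a description only.

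The cells came from 5xFAD mice on the C57BL/6J strain, which carry mutated human transgenes of familial Alzheimer's disease driven by the neuronal Thy1 promoter and form amyloid plaques. Hippocampus was taken from 3 replicate mice and cortex from 4. WT C57BL/6J mice and 5xFAD cerebellum were used only to place both classes among other cells. The labels give no age. Cells from homogenised, perfused brains were stained for CD11b, CD45, Ly6C, Ly6G and CD206, sorted singly into wells and processed by Smart-seq2, which copies whole transcripts and tags no molecule with an identifier. The regions were taken from the same mice, so the 7 replicates of the 2 regions are not fully independent. All 5xFAD hippocampus cells lay on 1 plate and all 5xFAD cortex cells on another, so region and plate cannot be told apart. Each comparison of the classes was made within a plate.

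Ccl4 and Ccl3 are inflammatory chemokines of the CC family. They are secreted and bind CC chemokine receptors on macrophages, T cells and other leukocytes. In macrophages their transcription is induced within a short time by stimuli that activate NF-kB and AP-1 factors, often together with Tnf and Il1b. Disease-associated microglia are a state described around amyloid plaques, with higher lipid, lysosomal and phagocytic genes and lower homeostatic genes. Enzymatic or mechanical isolation of the brain is known to induce immediate early and chemokine genes in microglia. Its part in the values below was not tested.

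Ccl3 and Ccl4 are neighbours on mouse chromosome 11 (GRCm38), at 83647844 to 83649355 on the minus strand and at 83662584 to 83664683 on the plus strand, with 13228 bases between them. Atf3 lies on chromosome 1 at 191170296 to 191218039 and C3ar1 on chromosome 6 at 122847138 to 122856161, both on the minus strand. Apart from Ccl4, these 3 genes were the ones the results below turn on most. The 250 bases upstream of their RefSeq start sites (table of GRCm38.p6) are printed to show what the promoters of genes that accompanied Ccl4 hold. Letters in capitals mark a searched motif found on either strand.
Ccl3, chr11:83649379-83649628, minus strand: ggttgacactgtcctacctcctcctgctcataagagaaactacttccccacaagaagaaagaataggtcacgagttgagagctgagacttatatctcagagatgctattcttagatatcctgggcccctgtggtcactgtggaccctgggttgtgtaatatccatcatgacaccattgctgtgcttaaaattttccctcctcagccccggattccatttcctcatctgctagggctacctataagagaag
Atf3, chr1:191183334-191183583, minus strand: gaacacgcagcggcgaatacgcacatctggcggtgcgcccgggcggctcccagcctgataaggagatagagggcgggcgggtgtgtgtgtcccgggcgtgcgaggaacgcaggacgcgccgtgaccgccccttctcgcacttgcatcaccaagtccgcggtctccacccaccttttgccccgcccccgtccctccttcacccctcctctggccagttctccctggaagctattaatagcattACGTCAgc
C3ar1, chr6:122856158-122856407, minus strand: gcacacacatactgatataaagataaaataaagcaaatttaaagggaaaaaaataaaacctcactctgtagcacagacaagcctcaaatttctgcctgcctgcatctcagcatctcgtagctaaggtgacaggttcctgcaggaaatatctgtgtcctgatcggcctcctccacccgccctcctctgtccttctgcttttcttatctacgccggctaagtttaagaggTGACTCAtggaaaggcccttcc
The capitals in the Atf3 promoter are the core of a cAMP response element, ACGTCA, which 6.56% of 27025 promoters of this length hold. This core was searched after the sequence had been read. Those in the C3ar1 promoter are an AP-1 site, TGANTCA, present in 6.87% of the promoters. The NF-kB motif, present in 3.75%, and the full cAMP response element TGACGTCA, present in 1.62%, were in none of the 3 windows. The last 7 bases of the Atf3 window and the last 4 of the C3ar1 window lie in an annotated exon. The Atf3 window lies inside the annotated gene, downstream of its outermost start on the minus strand, where no window was searched. These matches describe letters and are not evidence of binding.

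Pooled over replicates, median depth was close in both classes, but within replicates it varied. Median reads in genes per cell were 309524 in Ccl4-positive and 307755 in Ccl4-negative cells. Median genes detected were 3074 in positive and 3014 in negative cells, and median shares of mitochondrial reads were 2.41% and 2.54%. Within replicates, median reads of positive minus negative cells ran from -30397.5 to 122561, with a mean of 32390. In cortex replicate 3 the medians were 326860 in positive and 204299 in negative cells, and in cortex replicate 2 246691 and 166772. Exact two-sided sign-flip permutation tests over the 7 within-replicate differences gave p = 0.188 for reads, 0.516 for genes and 0.672 for the mitochondrial share. With 7 pairs these do not show that depth was equal. The shallowest negative cell had 66604 reads, so 0 reads there allowed a Ccl4 level of up to 45.0 CPM, and the median limit over the 67 negative cells was 9.75 CPM. These limits cover counting error only. The cells were counted per replicate and class as 12, 10 and 8 positive against 10, 17 and 15 negative cells in hippocampus. In cortex there were 4, 6, 3 and 7 positive against 5, 7, 5 and 8 negative cells. Their reads were added up per replicate and class, which gave 14 sums of 951599 to 6155644 reads.

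Microglial markers were present in both classes. A read of Cx3cr1, the fractalkine receptor of microglia, was found in 100% of positive and 98.5% of negative cells after every cell was thinned to 53000 reads. The purinergic receptor gene P2ry12 was found in 98% and 94% of cells, and the microglial gene Tmem119 in 88% and 94%. Summed markers of border macrophages ran from 0 to 127 CPM in positive and 0 to 72.5 CPM in negative sums, with Cd163 and Cbr2 at 0. Monocyte markers ran from 0 to 97.4 and 0 to 66.3 CPM with Ly6c2, Plac8 and Hp at 0, and T and NK cell markers from 0 to 40.4 and 0 to 1.79 CPM with 8 of 11 markers at 0. Red blood cell markers were at 0 in all sums. Neutrophil markers ran from 426 to 711 CPM in positive and 464 to 925 CPM in negative sums, B cell markers from 699 to 1369 and 454 to 985 CPM, and endothelial markers from 282 to 934 and 413 to 868 CPM. Astrocyte markers ran from 14.9 to 299.96 and 63.0 to 338 CPM, oligodendrocyte markers from 26.9 to 352 and 68.0 to 345 CPM, and neuron markers from 0 to 26.2 and 0 to 31.5 CPM. None of the 10 other-cell-type lists was higher in positive cells in more than 4 of 7 replicates. Their part in the differences below was not tested.

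Ccl4-positive cells were a minority of disease-associated cells in each of the 7 replicates. They made up 46.2%, 32.3% and 27.6% of disease-associated cells in the 3 hippocampus replicates, and 44.4%, 40%, 27.3% and 43.8% in the 4 cortex replicates. The replicate shares of the 2 regions overlapped. Pooled over replicates, 34.9% of 86 hippocampal and 39.2% of 51 cortical disease-associated cells were positive, counts in which cells of a mouse are not independent. Among cells of the same regions with fewer than 3 panel genes, 5 of 47 in hippocampus and 11 of 121 in cortex were positive. In 5xFAD cerebellum the count was 12 of 42 disease-associated cells and 10 of 145 others. In WT mice, which had few cells with 3 or more panel genes, 8 cells of 137 in cerebellum, 2 of 133 in cortex and 3 of 177 in hippocampus were positive. None of the 12 blank wells held a Ccl4 read.

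Among the 50 positive cells, Ccl4 ran from 52.3 to 8895 CPM with a median of 260 CPM. In sums, it stood at 1001, 805 and 350.1 CPM in hippocampal positive cells and at 112, 2737, 1139 and 519 CPM in cortical ones, and at 0 in negative sums by definition. The 3 cells just inside the threshold had 52.3, 52.3 and 63.7 CPM, and the first of them rested on 13 reads. The 3 cells just outside had 49.5, 45.3 and 43.9 CPM, and the first of these rested on 5 reads. Positive cells also had more panel genes, with a mean of 4.84 against 4.37 in negative cells.

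Ccl3 stood higher beside Ccl4 in all 7 replicates, without passing the test across all genes. It stood at 555, 783 and 270.4 CPM in positive sums of hippocampus, against 94.8, 217 and 83.2 CPM in negative sums. In cortex it stood at 494, 1368, 819 and 377 CPM in positive sums, against 163, 96.6, 349 and 248 CPM in negative sums. Within each region the classes did not overlap. Over the 7 replicates Ccl3 averaged 667 ± 368 CPM in positive and 179 ± 98.6 CPM in negative cells (SD, n = 7 each). The edgeR log2 fold change was 2.02 ± 0.64 in hippocampus, 1.84 ± 0.56 in cortex and 1.93 ± 0.43 as the mean of both regions (estimate ± SE). The last had an unadjusted p of 0.000299 in edgeR, and a Benjamini-Hochberg adjusted p of 0.706 over 9854 genes. The fold did not pass the threshold of 0.05.

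Cell by cell, 47 of 50 positive and 35 of 67 negative cells held a Ccl3 read, and 42 and 31 of them reached 50 CPM. Ccl3 was therefore present in part of the cells without Ccl4. After thinning to equal depth, 92% of positive cells and 49.3% of negative cells had a Ccl3 read. The share was higher in positive cells in 6 of 7 replicates (exact two-sided sign-flip permutation p = 0.0312, adjusted p = 0.169 over 27 genes, smallest p that 7 independent replicates would allow 0.0156). Within the 50 positive cells the Spearman coefficient of Ccl3 and Ccl4 CPM was 0.534, across cells that share mice and plates, and 27 cells had more Ccl3 than Ccl4. The transcripts of the 2 genes share no stretch of 25 or 50 bases, so reads of such a length map to 1 of them alone.

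**Figure D1:**
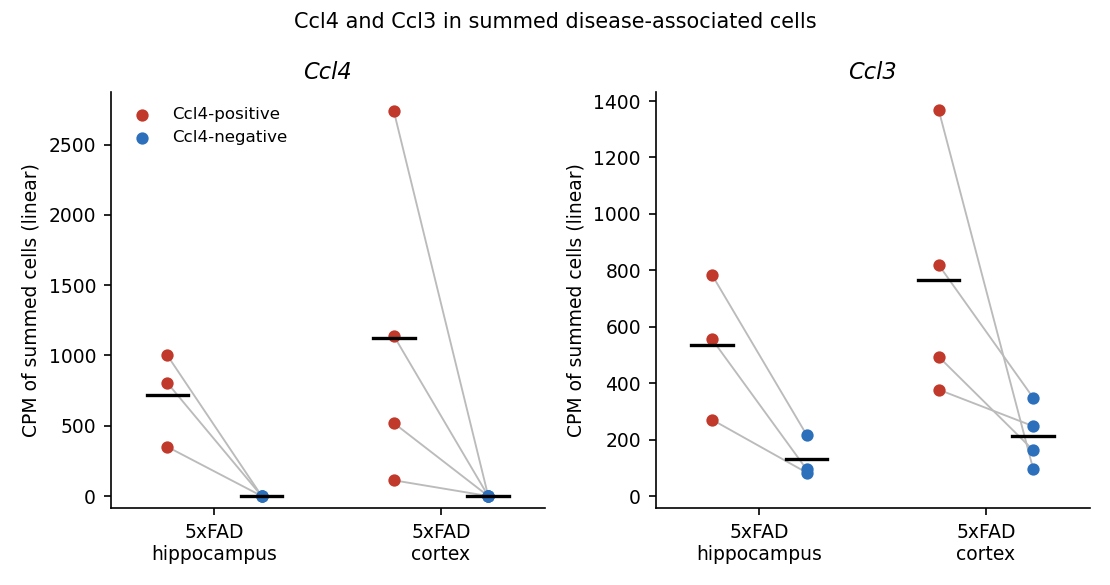
Ccl4 and Ccl3 levels in CPM (linear axis) in each sum of Ccl4-positive and Ccl4-negative disease-associated cells, by region, with lines joining the 2 classes of a replicate. Ccl3 lay higher in the positive class in all 7 replicates, and Ccl4 is 0 in the negative class by definition.

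**Figure D2:**
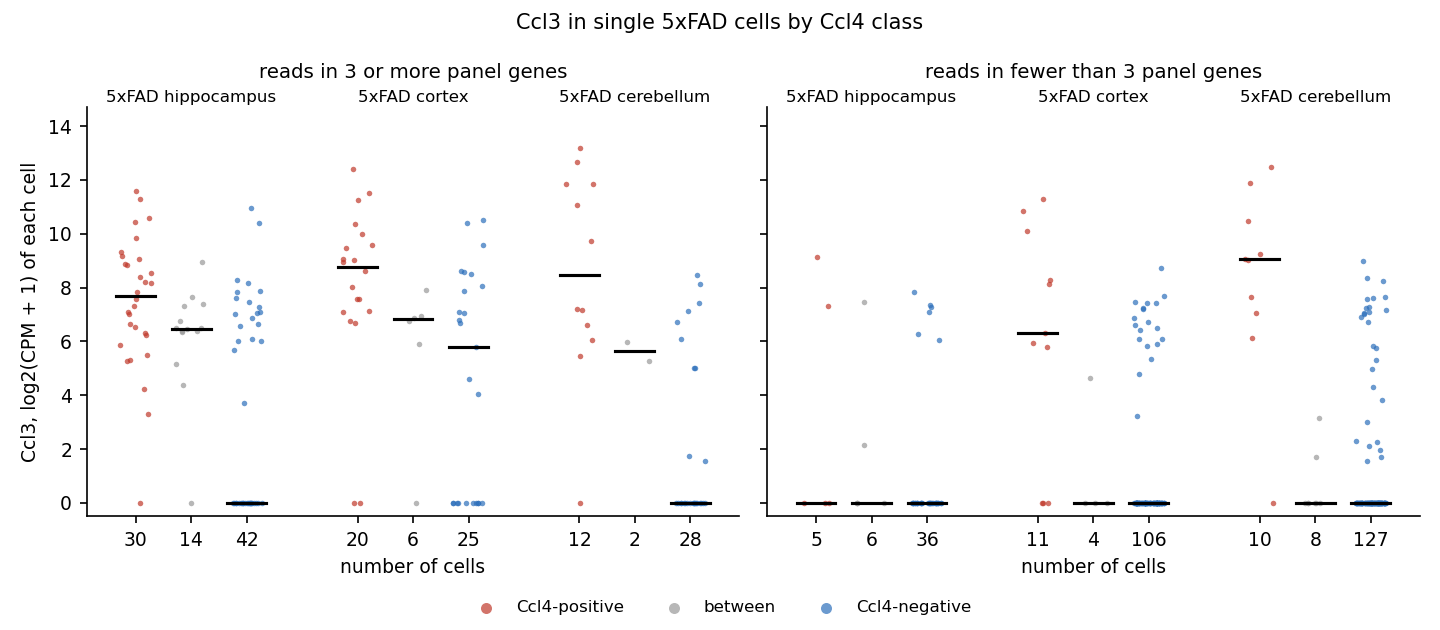
Ccl3 in single 5xFAD hippocampus, cortex and cerebellum cells as log2(CPM + 1), split by the number of panel genes with reads and by Ccl4 class (positive, between, negative). Each point is a cell and the black line the median. Cells without Ccl4 spread from 0 up to the range of the positive cells.

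No gene passed the adjusted threshold between the classes in edgeR. With edgeR's quasi-likelihood test and adjustment over 9854 genes, 0 genes (0%) passed an adjusted p of 0.05 in hippocampus, in cortex, in the mean of both regions, or for the difference between regions. At an unadjusted p below 0.05 there were 333 genes (3.38% of those tested) in hippocampus and 791 (8.03%) in cortex. The mean had 599 (6.08%; 183 higher and 416 lower in positive cells) and the difference 467 (4.74%). Where no gene differs, this cut passes a share of about 0.05. DESeq2 called 73, 218, 199 and 165 of 9409 genes. Of its 199 calls in the mean, 173 had an absolute log2 fold change over 5 and 11 had the same sign in all 7 replicates. limma on cell means, which average log2(CPM + 1) over cells, called 0, 0, 1 and 0 genes. The 1 was Ccl3 (difference of these averages 3.93, limma adjusted p = 0.0289). Direction was therefore also counted by replicate: 34 genes (0.345% of those tested) were higher and 89 (0.903%) lower in positive cells in all 7 replicates. Random and independent signs would put a fraction of 0.0156 of genes at 1 sign in all 7, both directions together. A direction shared by all 7 replicates is thus a description and not a test. The median log2 fold change over all genes was -0.12, and 44.5% of them had a positive fold, which is the background for the list counts below.

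Among the tested chemokine ligands other than Ccl4, Ccl3 stood apart by its direction in all 7 replicates. Of the 23 listed, 8 were abundant enough to test, and 6 of these had a positive log2 fold change. Their median was 0.31, 0 passed the adjusted threshold in edgeR, and 1, Ccl3, had an unadjusted p below 0.05. Ccl9, a CC chemokine of myeloid cells, averaged 246 ± 186 CPM in positive and 189 ± 138 CPM in negative cells. Ccl6 averaged 792 ± 417 and 1289.8 ± 1144 CPM. Ccl2, the monocyte attractant, was detected in 6 of 50 positive and 4 of 67 negative cells at equal depth. Its reads at full depth went the other way, with 282 in positive and 1203 in negative cells. A single cell held 61.7% of the former, and another 71.2% of the latter. The receptor gene Ccr1 was sparse, with 0 reads in the 50 positive cells and 151 reads in 3 of 67 negative cells, 1 of which held 65.6% of them. Of the 11 chemokine receptors, 7 were tested and 2 had a positive fold change, with a median of -0.27, or -0.16 when genes of a class at 0 are set to their bound.

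Inflammatory cytokines had the highest median of the 18 gene lists. Of the 22 listed, 13 were tested, 10 of them had a positive fold change, and the median log2 fold change was 1.22 against -0.12 over all genes. It was 0.70 in hippocampus and 1.29 in cortex. None of the 13 passed the adjusted threshold in edgeR, where 2, Osm and Il1b, had an unadjusted p below 0.05, both with a positive fold. These are sparse genes carried by few cells. Tnf, the central inflammatory cytokine, had reads in 8 of 50 positive and 3 of 67 negative cells after thinning (16% and 4.48%, higher in 6 of 7 replicates and equal in the other; exact two-sided sign-flip permutation p = 0.0312, adjusted p = 0.169). Osm, encoding oncostatin M, had 1371 reads in 11 positive cells and 53 reads in 2 negative cells. In sums it stood at 105, 127 and 75.7 CPM in hippocampal positive cells, against 0, 0 and 0.246 CPM in hippocampal negative cells. The cortical sums held 0, 153, 0 and 0 CPM in positive cells, against 39, 0, 0 and 0 CPM in negative cells, so the classes were apart in hippocampus and mixed in cortex.

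The interleukin-1 genes rested on single cells or showed no common direction. Il1b stood at 21.9, 309.6 and 0 CPM in hippocampal positive sums and at 0, 0, 1624 and 105 CPM in cortical ones. In negative sums it stood at 0, 16.4 and 93.7 CPM in hippocampus and at 0 in the 4 cortical sums. A single cell held 59.1% of the Il1b reads of all positive cells, and another held 80.7% of those of negative cells. Il1a averaged 281 ± 403 CPM in positive and 239.6 ± 201 CPM in negative cells, and was higher in positive cells in 3 of 7 replicates.

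Atf3, a stress-induced transcription factor of the ATF/CREB family, had the smallest unadjusted p of the mean comparison. It stood at 397, 514 and 338 CPM in positive sums of hippocampus, against 243, 42.9 and 151 CPM in negative sums. Cortical values were 0, 191, 453 and 188 CPM in positive sums, against 0, 0.64, 0 and 1.69 CPM in negative sums. Positive cells had more Atf3 in 6 of 7 replicates, and both classes of cortex replicate 1 were at 0. The log2 fold change in edgeR was 4.84 ± 1.04 as the mean of the regions, with an unadjusted p of 0.000223 and an adjusted p of 0.706. The fold leans on cortex, where all negative cells together held 5 reads in 2 cells. Hippocampus minus cortex came to -6.64 ± 1.94 (edgeR adjusted p = 0.951). After thinning, 42% of positive and 14.9% of negative cells had an Atf3 read, higher in 6 of 7 replicates (exact two-sided sign-flip permutation p = 0.0312, adjusted p = 0.169). Without cortex replicate 1 the mean fold was 4.85 with an edgeR adjusted p of 0.0305.

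Of the 28 immediate early genes listed, which include Atf3, 18 were tested and 13 had a positive fold change. Their median was 0.38, with 0 past the adjusted threshold. Fos had 175 reads in 3 positive cells and 0 in negative cells. Jun averaged 70.6 ± 56.4 CPM in positive and 35.2 ± 33.3 CPM in negative cells and was higher in 4 of 7 replicates. Of the 30 genes of NF-kB feedback, 26 were tested and 19 had a positive fold change, with a median of 0.52. That median was -0.23 in hippocampus and 1.17 in cortex. Nfkbia, the inhibitor that NF-kB itself induces, averaged 209.03 ± 278 CPM in positive and 73.1 ± 86.6 CPM in negative cells, higher in 5 of 7 replicates. A single cell held 39.1% of its reads in positive cells. Its log2 fold change was 1.42 ± 0.76 and ran from 0.21 to 2.83 over the alternatives. The early response gene Ier3 averaged 49 ± 48.7 and 6.6 ± 8.83 CPM, higher in 6 of 7 replicates, with a fold of 3.22 ± 1.63. Tnfaip3, which encodes the NF-kB inhibitor A20, averaged 126 ± 149 and 85.6 ± 52.3 CPM and was higher in 4 of 7. None of these passed the adjusted threshold in edgeR.

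C3ar1 encodes the receptor for complement fragment C3a and was named after its values were seen. It stood at 1676, 799 and 1599.8 CPM in positive sums of hippocampus, against 286, 473 and 834 CPM in negative sums. In cortex its level was 1259, 805, 1866 and 1109 CPM in positive sums, against 283, 589.9, 583 and 722 CPM in negative sums. All 7 replicates had more in positive cells, and within regions the classes overlapped in hippocampus alone, where the highest negative sum lay above the lowest positive one. The mean was 1302 ± 425 CPM in positive and 539 ± 208 CPM in negative cells. The edgeR log2 fold change was 1.35 ± 0.47 in hippocampus, 1.21 ± 0.41 in cortex and 1.28 ± 0.31 as the mean (adjusted p = 0.706). A read was found in 80% of positive and 68.7% of negative cells at equal depth, so the classes differed less in detection than in level. The pattern recognition gene Tlr2, which senses bacterial lipopeptides and amyloid, averaged 933 ± 413 and 523 ± 161 CPM and was higher in 6 of 7 replicates (log2 fold change 0.81 ± 0.30). Its list had 13 of 21 tested genes with a positive fold and a median of 0.22.

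**Figure D3:**
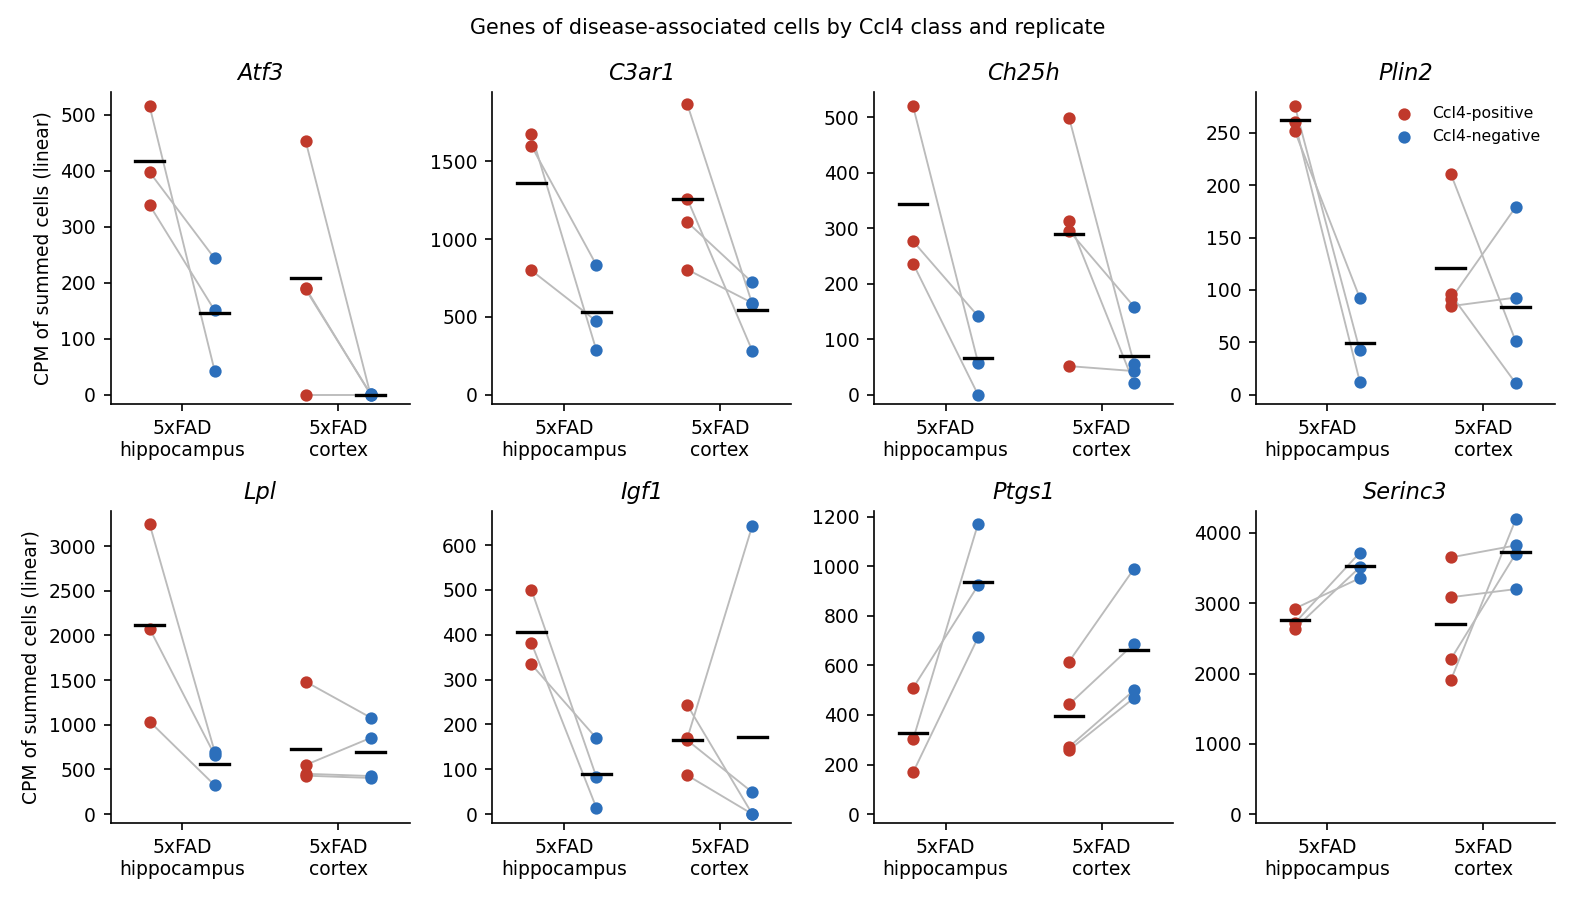
Levels in CPM of 8 genes in each sum of Ccl4-positive and Ccl4-negative disease-associated cells, by region, with lines joining the classes of a replicate and black bars for class means. C3ar1 and Ch25h lie higher and Ptgs1 and Serinc3 lower in the positive class in all 7 replicates, whereas Lpl differs mainly in hippocampus.

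Lipid genes differed in part. Ch25h, the enzyme that makes 25-hydroxycholesterol and is induced in macrophages by inflammatory stimuli, stood at 237, 519.9 and 277 CPM in positive sums of hippocampus, against 0, 58.1 and 142 CPM in negative sums. Cortex gave 296, 313, 499.6 and 51.8 CPM in positive sums, against 159, 20.5, 55.8 and 42.8 CPM in negative sums. It was higher in positive cells in 7 of 7 replicates, with a log2 fold change of 2.22 ± 0.88 (edgeR adjusted p = 0.798), and at equal depth 60% of positive and 20.9% of negative cells had a read. Plin2, which coats lipid droplets, stood at 259.8, 251 and 276 CPM in hippocampal positive sums, against 12.6, 92.3 and 42.3 CPM in negative sums. Cortical levels were 91.2, 84.6, 210.8 and 95.8 CPM in positive sums, against 179, 92.8, 51 and 11 CPM in negative sums. The classes were apart in hippocampus and mixed in cortex. The fold was 1.47 ± 0.64 (edgeR adjusted p = 0.811). Abca1, the cholesterol exporter, named after its values were seen, was lower in positive cells in 7 of 7 replicates, with a log2 fold change of -1.16 ± 0.65. Of the 29 lipid handling genes 25 were tested, 16 with a positive fold and a median of 0.29.

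The panel genes took part in choosing the cells, and their values are a description. Lpl, lipoprotein lipase, stood at 2076, 3244 and 1036 CPM in hippocampal positive sums, against 661, 699.8 and 323 CPM in negative sums. In cortex it stood at 1483, 430.2, 549.5 and 451 CPM in positive sums, against 1080.3, 404, 852 and 426 CPM in negative sums. The log2 fold change was thus 1.92 ± 0.57 in hippocampus and 0.08 ± 0.48 in cortex, where it was -0.25 without replicate 1. Igf1, a growth factor, stood at 334, 382 and 500.4 CPM in hippocampal positive sums, against 169, 14.1 and 82.9 CPM in negative sums. The cortical values were 169, 86.4, 243 and 165 CPM in positive sums, against 643, 0, 0 and 48.7 CPM in negative sums. Igf1 reads were found in 58% of positive and 23.9% of negative cells at equal depth, and the share was higher in positive cells in all 7 replicates. Itgax, the integrin CD11c, went the other way in share, with 40% of positive and 58.2% of negative cells. Cst7, an inhibitor of cysteine cathepsins, averaged 2359 ± 1124 and 2369.8 ± 2263 CPM, Clec7a, the beta-glucan receptor, 1237 ± 581 and 1062 ± 378 CPM, and Axl, a receptor of dying cells, 617 ± 263 and 612 ± 95.3 CPM.

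Genes of the disease-associated state outside the panel had no common direction. Of 40 listed, 38 were tested, 21 with a positive fold and a median of 0.05. Trem2, the lipid receptor needed for this state, averaged 3674 ± 442 CPM in positive and 3455 ± 861 CPM in negative cells. Apoe, the lipid carrier, averaged 17068 ± 8152 and 15331 ± 8520.1 CPM. Lilrb4a, an inhibitory receptor, averaged 297 ± 162 and 124 ± 80.9 CPM and was higher in 6 of 7 replicates, with a fold of 1.32 ± 0.43. The phosphate transporter gene Ank (1384 ± 496 and 881 ± 259 CPM) and Litaf, a gene induced by lipopolysaccharide (378 ± 122 and 194 ± 95.4 CPM), were named after their values were seen and were higher in 7 of 7. Their folds were 0.65 ± 0.27 and 0.98 ± 0.38. Lysosome genes had 11 of 36 positive folds and a median of -0.12, the same as all genes.

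**Figure D4:**
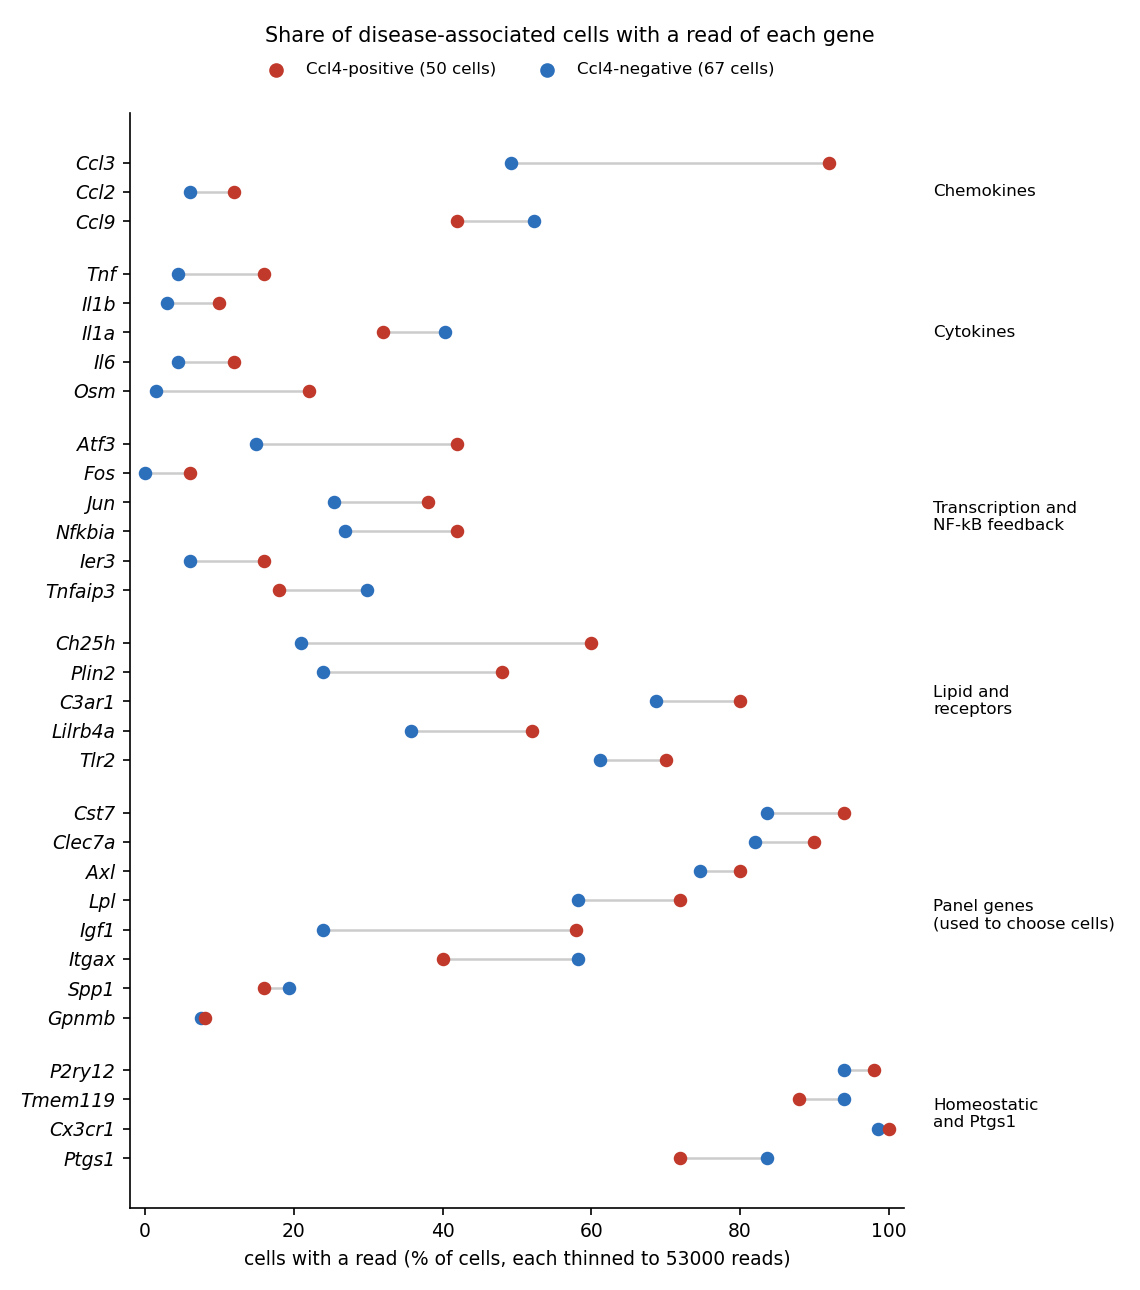
Percent of Ccl4-positive and Ccl4-negative disease-associated cells with a read of each gene after thinning every cell to 53000 reads. Igf1, Ch25h and Ccl3 have the widest gaps in favour of positive cells among the genes shown, and Itgax has a gap the other way.

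Homeostatic microglia genes leaned to the negative cells. Of the 26 genes, all tested, 3 had a positive and 23 a negative fold, with a median of -0.28 against -0.12 over all genes, and 0 passed the adjusted threshold in edgeR. Of the 26, 2 were lower in positive cells in all 7 replicates, Serinc3 and the crystallin gene Crybb1, the second named after its values were seen (background 0.903% of genes). Tmem119 averaged 1552 ± 528 CPM in positive and 2042 ± 451 CPM in negative cells, with a log2 fold change of -0.44 ± 0.23. P2ry12 averaged 2621 ± 900.5 and 3156 ± 895 CPM, with a fold of -0.28 ± 0.23 that was 0.16 by limma on cell means. Serinc3 averaged 2733 ± 575 and 3645 ± 327 CPM and was lower in 7 of 7 replicates, with a fold of -0.41 ± 0.15.

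Ptgs1, the constitutive cyclooxygenase, was named after its values were seen. It stood at 302, 169 and 509 CPM in positive sums of hippocampus, against 1172, 713 and 923 CPM in negative sums. In cortex its level was 443, 259, 271 and 616 CPM in positive sums, against 687, 469, 499.9 and 990.5 CPM in negative sums. All 7 replicates had less in positive cells, and the log2 fold change was -1.13 ± 0.33 (edgeR adjusted p = 0.706). The lipid flippase gene Atp8a1, also named after its values were seen, had a fold of -1.41 ± 0.36 and was lower in 6 of 7. Over the 9854 genes tested, 1 gene, Gtpbp8, had all 7 positive sums above all 7 negative sums. In 3 genes, B4galt3, Mgme1 and Exosc8, they were all below. These 4 were named after their values were seen, and whether chance alone would give as many was not tested. Gtpbp8 held 835 reads in positive and 25 in negative cells.

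The remaining lists ran in both directions, and some differed in sign between regions. MHC class II genes had 0 of 7 positive folds and a median of -0.55, which was 0.01 in hippocampus and -0.52 in cortex. Cd74, the invariant chain of MHC class II, averaged 201 ± 171 CPM in positive and 294 ± 184 CPM in negative cells. Interferon response genes had 11 of 26 positive folds and a median of -0.25, which was -0.80 in hippocampus and 0.73 in cortex. MHC class I genes had 5 of 14 and a median of -0.15. Heat shock genes had 8 of 10 positive folds with a median of 0.27, which was 0.26 in hippocampus and 0.49 in cortex. Medians were also positive in both regions for glycolysis genes and for mTOR, growth and translation genes. Glycolysis genes had 11 of 16 positive folds with a median of 0.23, mTOR, growth and translation genes 10 of 13 with 0.20, and cell cycle genes 7 of 13 with 0.08. Among glycolysis genes, Tpi1, triosephosphate isomerase, had a fold of 0.79 ± 0.38 and the lactate transporter gene Slc16a3 one of 0.81 ± 0.46. In each of the 18 lists, 0 members passed the adjusted threshold in edgeR.

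**Figure D5:**
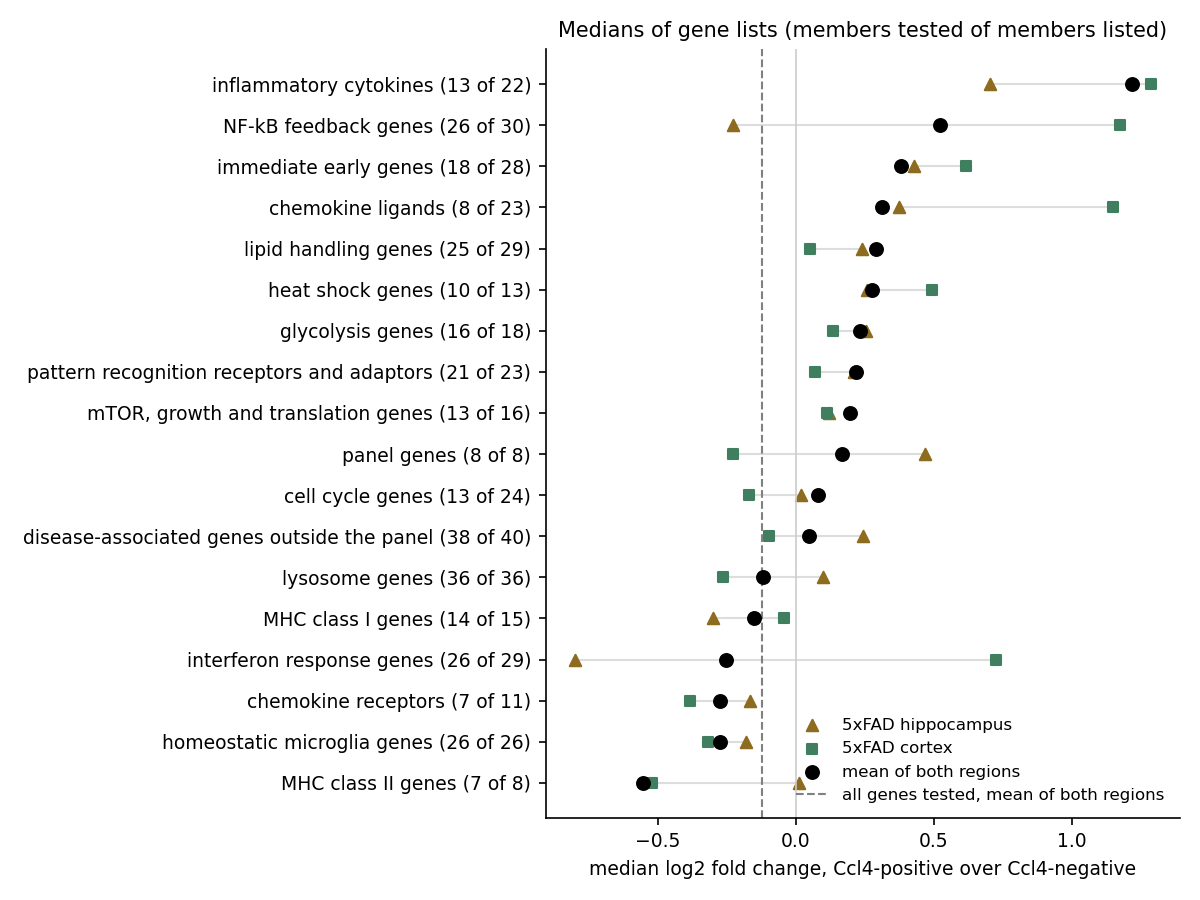
Median log2 fold change of Ccl4-positive over Ccl4-negative disease-associated cells over the tested members of each gene list. Triangles give hippocampus, squares cortex and black points the mean of both regions. The dashed line gives the median of all genes tested in the mean of both regions. In the mean of both regions, cytokine and NF-kB feedback genes have the highest medians, at 1.22 and 0.52, against -0.12 for all genes.

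Cells outside the 2 classes gave a further view of the same genes. In hippocampal and cortical 5xFAD cells with fewer than 3 panel genes, 16 were Ccl4-positive and 142 Ccl4-negative. At equal depth a Ccl3 read was found in 62.5% of these positive and 16.9% of these negative cells, an Atf3 read in 50% and 7.75%, and a C3ar1 read in 87.5% and 63.4%. Igf1 was found in 0% of both, Ch25h in 12.5% and 0%, and Plin2 in 12.5% and 11.97%. Replicates differed in this, with 1 to 4 positive cells each. In hippocampus replicates 2 and 3 the 1 and 2 positive cells had no read of Ccl3 or Atf3, whereas of the 15 and 9 negative cells 1 and 2 held Ccl3 reads, and 2 and 1 held Atf3 reads. The mean C3ar1 level per cell was 308 CPM in positive and 380.0 CPM in negative cells of hippocampus with fewer than 3 panel genes, and 1414 and 558 CPM in those of cortex. In those of cerebellum it was 829 and 972 CPM, so its direction was not shared by the regions. In disease-associated cells of 5xFAD cerebellum, 12 positive and 28 negative, Ccl3 averaged 2223 and 42.1 CPM per cell, Atf3 883 and 0 CPM, and C3ar1 1370 and 881 CPM. The median of Ccl3 was 495 and 0 CPM. Of these positive cells 5 came from replicate 1, 7 from replicate 3 and 0 from replicate 2. At equal depth Ch25h was found in 16.7% of these positive and 17.9% of these negative cells, Plin2 in 33.3% and 25%, and Igf1 in 50% and 25%. The 20 cells between the classes had a Ccl3 read in 90%, an Atf3 read in 25%, a Ch25h read in 50% and an Igf1 read in 35% of cells. These are pooled cells and were not tested.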

How the data were processed

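The authors deposited raw read counts per gene and well, with no normalization. The aligner STAR 2.5.2b, the counter featureCounts 1.5.1 and the genome build GRCm38 are named per the submitters' processing notes. The labels give neither the annotation nor the use of strand. The counts of 96 wells had those of other wells of their plate row added to them (wells 10 to 19 in plate column 1, wells 20 to 24 in plate column 2). These were subtracted, which left 0 negative values, and 10 of the 117 cells compared came from such wells. Cells were kept with at least 500 genes, 53000 reads in genes and at most 20% mitochondrial reads, which kept 939 of 1140. Reads of 1 molecule are not independent, so intervals and limits cover counting error only.

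Reads were summed per region, replicate and Ccl4 class (sums of at least 3 cells) and fitted in edgeR 4.0.16 (R 4.3.3; TMM, filterByExpr, quasi-likelihood, 1 term per region and class). P-values were adjusted by Benjamini-Hochberg over 9854 genes, with a threshold of 0.05. SE is derived from the test. Shares used cells thinned to 53000 reads (seed 20261) and an exact sign-flip permutation test over 7 replicates. The tests treat these replicates as independent, which regions of the same mice are not fully. A class of 0 counts had a bound of 3 counts. DESeq2 1.42.0 and limma 3.58.1 were alternatives. For limma, log2(CPM + 1) was computed in each cell from the deposited counts and then averaged over the cells of a sum. Its folds are differences between such averages, not folds of mean CPM. The edgeR step was run on simulated data to check the code, and its power for these sums is not reported here.

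The members, the gene lists and the tests were chosen with earlier results of these data known. Genes were named if past the threshold (0 were), if among the 4 of smallest p in a list, or if on a short list including Ccl3, Atf3, Tnf, Il1b, Apoe, Trem2 and the panel. Others are given as chosen after their values were seen. The classes of a replicate come from the same mouse and region and are paired by that. Their deviations correlated by -0.02 to 0.03 over 2813 genes. A few genes on these lists are not reported here.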

Additional observations from a re-analysis of the deposited data

Results flagged for a closer look

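In 56 groups of 4 cortical sums, 7 had a highest sum far from the other 3, by Dixon's 95% critical value for the gap over the range. Chance flags about 1 in 20 groups of normally distributed values, which CPM of few cells need not be. The count of 7 is thus not set against that rate. Cortex replicate 3 gave 2 of them in positive cells, Il1b at 1624 CPM with the next sum at 105 CPM, and Plin2 at 210.8 CPM with the next at 95.8 CPM. This sum held 3 cells. In its negative cells, Il1a stood at 284 CPM with the next sum at 114 CPM, and Nfkbia at 267 CPM with the next at 43.2 CPM. Cortex replicate 1 gave Lpl at 1483 CPM in positive cells, with the next sum at 549.5 CPM. In its negative cells Cst7 stood at 7189 CPM with the next sum at 1175 CPM, and Igf1 at 643 CPM with the next at 48.7 CPM.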

How the results depend on the processing

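The edgeR count of 0 genes stood in each of the 4 comparisons when a replicate block was added, where pairing also gave 0. DESeq2 called 73, 218, 199 and 165 genes in hippocampus, cortex, the mean and the difference. Without a filter on low counts, 13 genes were called in cortex, 3 in the mean and 7 for the difference. Ccl4 at 200 CPM or more, and sums of 5 cells or more, gave 1 in cortex and 1 in the mean, which was Atf3 each time. limma on cell means gave 1 in the mean, Ccl3. Leaving out each replicate in turn gave 0 to 1 gene in cortex and in the mean (Atf3, without cortex replicate 1), and 0 in the other comparisons. The causes were not tested.

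Of the fold changes printed, 7 values in 3 results turned. Lpl in cortex was -0.18 with Ccl4 at 200 CPM or more, -0.54 with 4 or more panel genes, -0.66 in sums of 5 cells or more, and ran from -0.25 (without cortex replicate 1) to 0.31 when each replicate was left out. The region difference of Igf1, 2.25 as fitted, was -1.35 with the replicate block and ran from -1.11 (without cortex replicate 1) to 3.31 when each replicate was left out. P2ry12 was 0.16 by limma on cell means. DESeq2 called Ccl3, Atf3, C3ar1, Lilrb4a, Ptgs1 and Atp8a1 in the mean. The mean Ccl3 fold ran from 1.44 to 3.93, with adjusted p from 0.000305 to 1, and that of C3ar1 from 1.06 to 2.17. Atf3 ran from 2.68 to 5.53. Of the 18 gene lists, 10 had a median that changed sign under at least 1 alternative. Those that kept it included cytokines (0.41 to 1.96), NF-kB feedback (0.31 to 0.86), immediate early (0.19 to 1.24) and homeostatic genes (-0.36 to -0.11). The shares of cells with a read of Atf3, Ccl3, Il1a, Il1b, Nfkbia or Tnf moved by less than their spread in 9 alternatives (each replicate left out, cells at their own depth, and without plate columns 1 and 2). Other shares were not rerun. The median of all genes moved by more than 0.1 with the block (by -0.16), no filter (-0.22), any Ccl4 read (0.14), Ccl4 at 200 CPM (-0.30) and limma (0.16). Sums of 3 to 17 cells limit the precision: the median SE over all genes was 1.39 in the mean comparison, and 0.35 over the 510 best covered genes.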
